A study of Mus musculus with 15 samples.

Results

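The genes described here encode 9 cytokine receptor chains of T cells: Il7r, Il2rg, Il21r, Il9r and Il15ra, whose receptors belong to the common gamma chain family, Il6ra, Il6st and Il27ra of the gp130 family, and Il10ra of the IL-10 receptor family. They were chosen by name from the deposited count table of 24015 genes, and all 9 passed the filter on low counts that left 13578 genes tested. The RNA came from regulatory T cells (Tregs), CD4 T cells that restrain immune responses, sorted as CD45+CD3+CD4+YFP+ cells from adult C57BL/6 mice. The 15 libraries form 5 groups of 3, numbered as biological replicates, and whether a replicate is 1 mouse or a pool is not given.

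All groups carried the Foxp3 cre-eyfp allele, in which Foxp3, the gene of the factor that defines Tregs, drives Cre and the fluorescent protein. Mice with that allele alone are called WT here, and mice that also had Rora fl/fl are called cKO. Cre is therefore made in Foxp3+ cells, and Rora, which encodes the nuclear receptor ROR-alpha, is the gene meant to be lost there. Untreated skin was dorsal skin with ears, from WT and cKO mice. Treated skin was the ears alone of WT and cKO mice that had received 4 topical applications of MC903 in ethanol, a vitamin D analogue that inflames skin, with no vehicle group among these libraries. The fifth group was untreated WT lymph node (LN), from axillary nodes. Skin was digested for 90 minutes and nodes were homogenised with no digestion stated, so digestion moved with tissue and sampled site moved with MC903, and neither can be told apart from the comparison it moved with. The p-values measure only the spread between these samples.

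Cytokine receptors of these families are built from chains that bind the cytokine and chains that carry the signal into the cell through Janus kinases and STAT transcription factors. The common gamma chain, encoded by Il2rg, pairs with the private chains of the receptors for IL-2, IL-4, IL-7, IL-9, IL-15 and IL-21. The chain gp130, encoded by Il6st, carries the signal of IL-6 with Il6ra and of IL-27 with Il27ra, and Il10ra binds IL-10 and pairs with the product of Il10rb. Tregs depend on IL-2 and are known for a low level of the IL-7 receptor, and the IL-10 receptor is known to sustain their function in inflamed tissue.

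Promoter windows were found for 7 of the 9 genes in RefSeq's GRCm38.p6 table. The 4 windows shown are those of genes that changed together or in opposite directions: Il21r and Il9r, which both fell with MC903, Il7r, which rose with it, and Il6st, which rose in cKO skin. Each is the 250 bases before the annotated start, read 5′ to 3′ on the gene's strand, with matches to the searched motifs in capitals. They lie at chr7:125603179-125603428 on the plus strand (Il21r), chr11:32200280-32200529 on the minus strand (Il9r), chr15:9529877-9530126 on the minus strand (Il7r) and chr13:112463820-112464069 on the plus strand (Il6st).
Il21r: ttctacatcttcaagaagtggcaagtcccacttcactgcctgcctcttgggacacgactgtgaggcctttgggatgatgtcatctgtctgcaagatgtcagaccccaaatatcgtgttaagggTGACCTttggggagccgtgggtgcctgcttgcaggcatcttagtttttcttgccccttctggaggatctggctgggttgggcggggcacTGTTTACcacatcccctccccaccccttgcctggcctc
Il9r: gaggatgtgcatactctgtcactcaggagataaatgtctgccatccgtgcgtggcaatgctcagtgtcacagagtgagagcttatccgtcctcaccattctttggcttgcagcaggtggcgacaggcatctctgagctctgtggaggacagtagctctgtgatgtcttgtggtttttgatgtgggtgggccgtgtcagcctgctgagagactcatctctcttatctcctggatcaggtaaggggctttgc
Il7r: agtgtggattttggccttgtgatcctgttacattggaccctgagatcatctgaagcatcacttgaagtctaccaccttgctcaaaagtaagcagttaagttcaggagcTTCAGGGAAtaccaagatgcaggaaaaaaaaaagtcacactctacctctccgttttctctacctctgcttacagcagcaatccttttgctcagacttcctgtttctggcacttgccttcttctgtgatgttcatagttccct
Il6st: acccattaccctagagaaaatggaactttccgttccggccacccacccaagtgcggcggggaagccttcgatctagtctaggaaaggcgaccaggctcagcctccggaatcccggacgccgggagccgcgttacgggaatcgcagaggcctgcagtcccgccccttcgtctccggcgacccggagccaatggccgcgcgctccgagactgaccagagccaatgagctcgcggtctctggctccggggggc
The motifs searched on both strands were the ROR half-site AGGTCA, the STAT motif TTCNNNGAA, the AP-1 motif TGANTCA and the FOXO motif GTAAACA. The Il21r window held the ROR half-site on the opposite strand at position -127 from the start, a motif found in 14% of 32851 promoter windows of the same length, and the FOXO motif on the opposite strand at position -38, found in 3.17%. The Il7r window held the STAT motif at position -142, found in 7.02% of windows. The windows of Il9r and Il6st held none of the 4 motifs. These matches describe letters only, and binding was not measured.

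The libraries held 19.8 to 27.7 M counts each (M for mega), and levels are given as CPM, counts per M of library size scaled by the trimmed mean of M values (TMM). Foxp3 was read in every library, at 110.5 to 201.9 CPM in the 12 skin libraries and at 16.2 to 41.8 CPM in LN. Its log2 difference between WT skin and LN was 2.57 ± 0.26 (SE, adjusted p = 6.69e-07). Rora lay lower in each cKO library than in each WT library of the same treatment, and its log2 difference averaged over both treatments was -0.50 ± 0.10 (SE, adjusted p = 0.0193), but counts per gene do not show which exons were read. Rora was higher in WT skin than in LN by 4.55 ± 0.17 (adjusted p = 9.12e-12). With MC903 it fell in WT (-0.82 ± 0.15, adjusted p = 0.00292) and cKO (-0.95 ± 0.15, adjusted p = 0.00123). Transcripts of other cells were present. Keratinocyte markers summed to 62.1 to 652 CPM in skin and 16.4 to 18.1 CPM in LN, and B cell markers to 181 to 665 CPM in LN and 7.76 to 21.01 CPM in skin. Of 10 keratinocyte markers 6 were higher in WT skin than in LN at an adjusted p under 0.05, 1 was lower and 3 did not pass. A large part of their sum was Sfn, which averaged 257 CPM in WT skin, and Krt10 averaged 2.08 CPM in WT skin and 7.62 CPM in LN. Fibroblast and endothelial markers were highest in replicate 3 of cKO MC903 skin (502 CPM), replicate 3 of WT MC903 skin (403 CPM) and replicate 1 of cKO skin (211 CPM). In RNA of a sorted population, fewer cells that express a gene and less RNA of it per cell cannot be told apart.

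Per kilobase of merged exon, the order of the levels set Il2rg far above the other chains. In WT skin its level was 1247 ± 42.8 CPM per kb (SD, n = 3), followed by Il21r at 275 ± 73.2, Il7r at 85.2 ± 20.3, Il27ra at 46.1 ± 8.13 and Il10ra at 32.6 ± 5.74. Il6ra at 13.2 ± 0.715 and Il6st at 12.2 ± 3.79 CPM per kb did not differ beyond their spread. Il9r at 7.68 ± 2.64 and Il15ra at 3.85 ± 2.48 were the lowest. The order moved between groups: in LN Il27ra (115 ± 16.6 CPM per kb) ranked 3, close to Il21r (124 ± 21.1), and in WT MC903 skin Il7r (166 ± 30.5) passed Il21r (117 ± 24.1). Il2rg stayed first in all 5 groups.

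**Figure D1:**
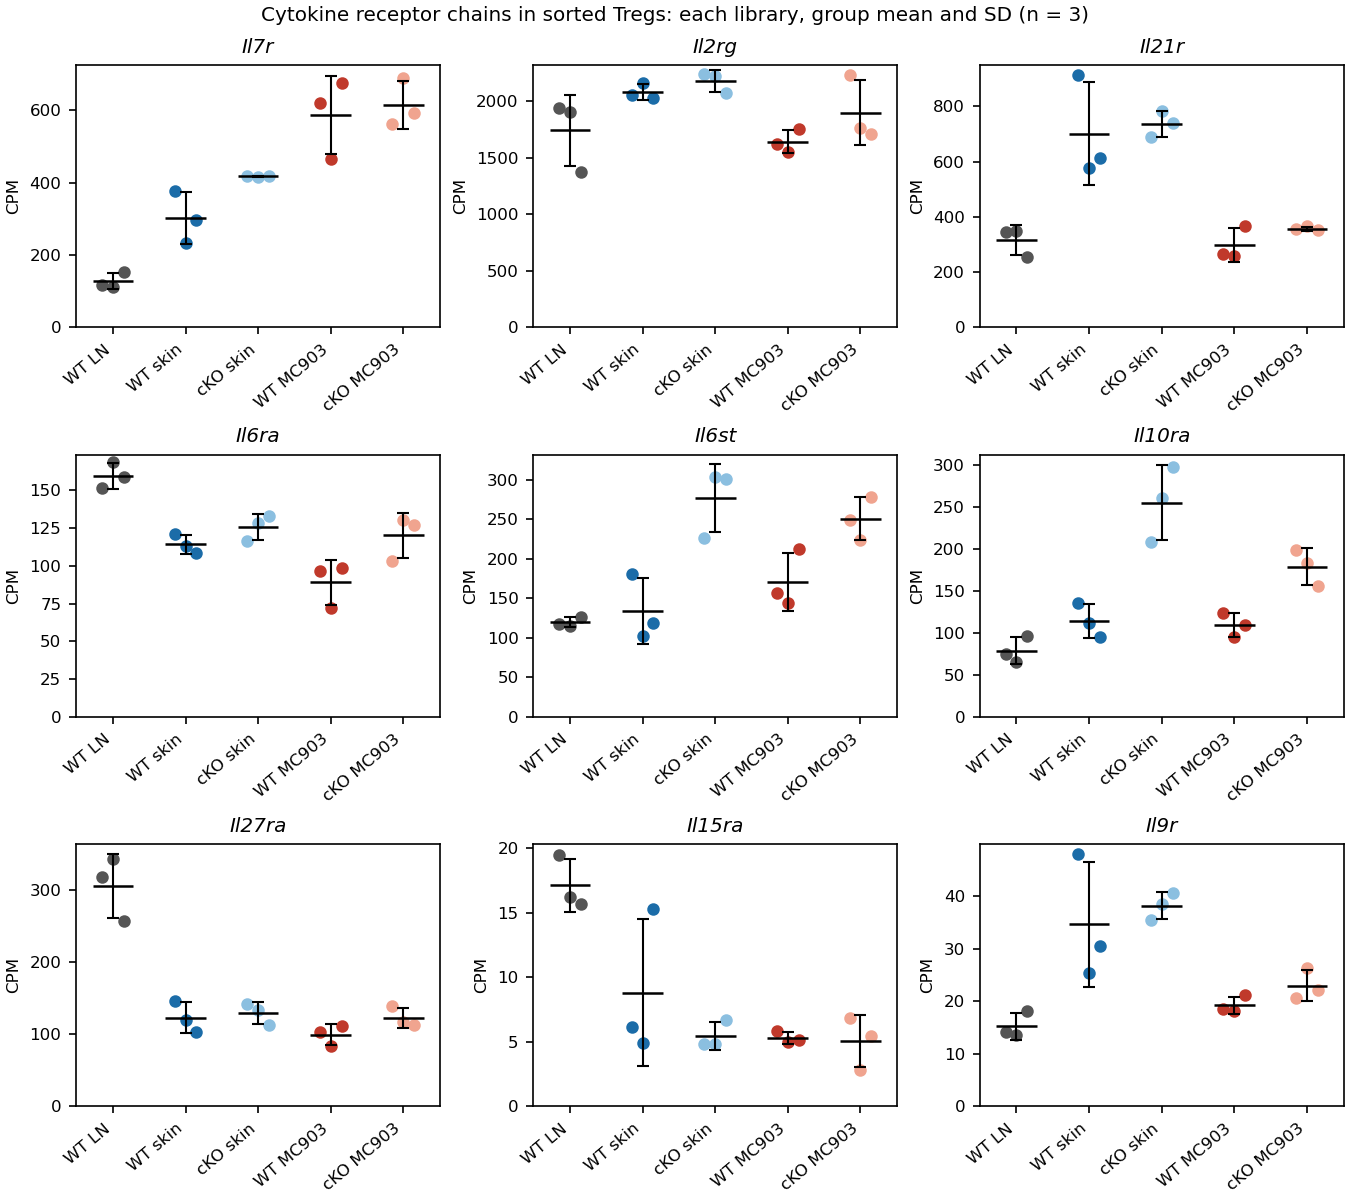
CPM of the 9 receptor chains in each of the 15 libraries, with linear axes from 0. Points are libraries, horizontal lines are group means and bars are the SD (n = 3). Il7r stands lowest in LN and highest in MC903 skin, Il21r and Il9r stand high in untreated skin of both genotypes, and Il6st and Il10ra stand higher in cKO than in WT untreated skin.

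Untreated WT Tregs of skin and LN were set against each other to see which chains differ between a barrier tissue and a lymphoid organ. Il7r, Il21r, Il9r and Il10ra were higher in skin, Il27ra, Il6ra and Il15ra were higher in LN, and Il2rg and Il6st did not pass the test. A gene is called where edgeR's quasi-likelihood test gave an adjusted p under 0.05, with Benjamini-Hochberg adjustment over all 13578 genes. Of all genes tested, 57.6% were called in this comparison, 28.8% higher and 28.8% lower, so 7 called chains of 9 is a share not far from the background. The median log2 change of the 9 chains was 0.26, beside 0.01 over all genes. The groups' libraries did not overlap for 7 chains, as for 63.4% of all genes.

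Among the private chains of the common gamma family, Il7r, which binds IL-7 and TSLP with a second chain, was read at 375, 232 and 298 CPM in WT skin and at 118, 111 and 154 CPM in LN. Every skin library lay above every LN library, a log2 difference of 1.24 ± 0.18 (SE, n = 3 per group, adjusted p = 2.45e-05). Il21r, the chain that binds IL-21, was read at 914, 575 and 611 CPM in WT skin and at 347, 348 and 254 CPM in LN. The groups did not overlap, and replicate 1 of WT skin stood above the other skin libraries (log2 difference 1.15 ± 0.18, adjusted p = 6.02e-05). Il9r, the chain that binds IL-9, showed 48.1, 25.3 and 30.5 CPM in skin and 14.1, 13.5 and 18.2 CPM in LN. Replicate 1 of WT skin was again the highest (1.18 ± 0.21, adjusted p = 2.22e-04).

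Il15ra, which presents IL-15 and binds it with high affinity, was read at 6.19, 4.95 and 15.3 CPM in WT skin and 19.5, 16.3 and 15.7 CPM in LN. The groups were set apart by a narrow gap, because replicate 3 of WT skin lay almost at the LN level. That library also held the most macrophage and dendritic cell marker transcript of its group, 169 CPM summed over 10 genes beside 15.9 and 40.3 CPM. In LN the same sum ran from 24.0 to 152 CPM, and the highest, in replicate 3, went with the lowest Il15ra level of that group. Over all 15 libraries the highest sum, 216 CPM in replicate 2 of cKO MC903 skin, went with the lowest Il15ra level, 2.86 CPM. The part of those cells in the Il15ra counts was not tested. The log2 difference of -0.96 ± 0.39 passed narrowly (adjusted p = 0.0442) and the call ended in 9 of 14 alternative fits, among them those without replicate 1 or replicate 2 of WT skin (adjusted p = 0.148 and 0.159) or without replicate 1, 2 or 3 of LN (0.118, 0.0739 and 0.0678). Without replicate 3 of WT skin it was -1.62 (adjusted p = 0.00149).

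Il2rg, the shared chain, was read at 2051, 2164 and 2032 CPM in WT skin and at 1944, 1905 and 1376 CPM in LN. Its log2 difference of 0.26 ± 0.14 did not pass the test (adjusted p = 0.116, 95% interval -0.03 to 0.55), although no LN library reached the lowest skin library.

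The chains of the gp130 family went the other way or showed no call. Il27ra, the private chain of the IL-27 receptor, was read at 146, 119 and 103 CPM in WT skin and at 318, 342 and 256 CPM in LN. Every LN library lay above every skin library, and the log2 difference of -1.32 ± 0.16 (adjusted p = 4.95e-06) had the smallest p of the 9 chains. Il6ra, which binds IL-6, showed 121, 113 and 109 CPM in skin and 151, 169 and 159 CPM in LN, without overlap (-0.48 ± 0.13, adjusted p = 0.00606). Il6st was read at 181, 102 and 118 CPM in skin and at 118, 115 and 127 CPM in LN. The groups overlapped, and the difference of 0.15 ± 0.20 did not pass (adjusted p = 0.515, 95% interval -0.26 to 0.57). B cell transcript moved with these differences. Its 9 markers summed to 8.13 to 12.6 CPM in WT skin and 181 to 665 CPM in LN. Within LN the highest sum, in replicate 3, went with the lowest Il27ra level and the middle Il6ra level of that group. The part of B cell transcript in the levels of Il27ra and Il6ra was not tested.

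Il10ra was read at 135, 112 and 95.03 CPM in WT skin and at 74.9, 65.4 and 96.7 CPM in LN. The groups overlapped at 1 library on each side, and the log2 difference of 0.53 ± 0.18 passed (adjusted p = 0.0187). The call ended without replicate 1 of WT skin (0.39, adjusted p = 0.0976), replicate 1 of LN (0.49, 0.0631) or replicate 2 of LN (0.41, 0.0959).

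The authors' deposited table of the same comparison, written as LN over skin, gives log2 changes of -1.26 for Il7r, -1.17 for Il21r, -1.20 for Il9r, -0.57 for Il10ra and -0.30 for Il2rg. The authors' deposited table gives 1.26 for Il27ra, 0.44 for Il6ra, 0.86 for Il15ra and -0.19 for Il6st. Its adjusted p is 0.0599 for Il2rg and 0.432 for Il6st, and it is under 0.05 for the other 7 chains.

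**Figure D2:**
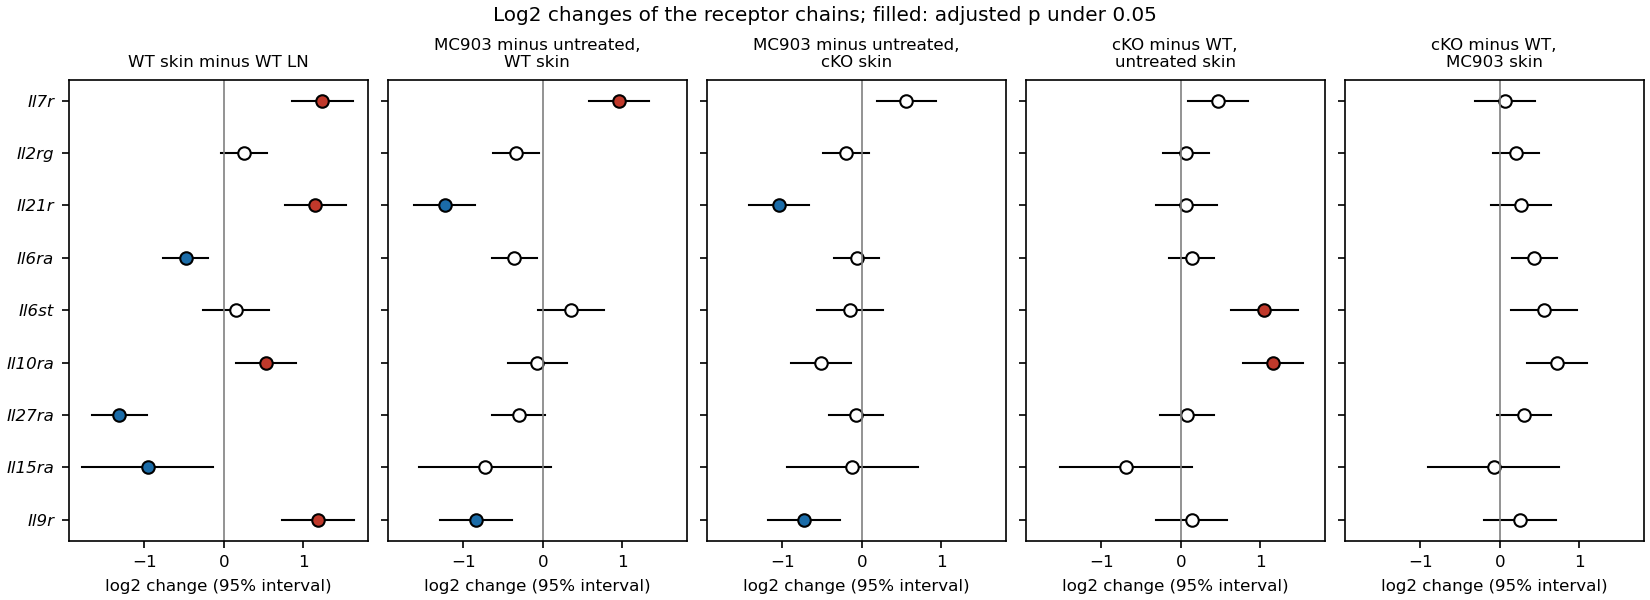
Log2 change of each receptor chain in 5 comparisons, fitted by edgeR. Points are estimates, bars are 95% intervals, and filled points have an adjusted p under 0.05, red for higher and blue for lower. Skin against LN has 7 filled points, genotype in untreated skin has Il6st and Il10ra, genotype in MC903 skin has none, and Il21r and Il9r are filled on the lower side for MC903 in both genotypes.

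The partners of these chains were read beside them, from lists written with earlier results of these data known. In the list of 9 common gamma family chains, which also counts Crlf2 as a partner of Il7r, 7 were higher in skin, 1 was lower and 1 did not pass. The median log2 difference of the list was 0.88. The higher ones included Crlf2, the TSLP receptor chain that pairs with Il7r (0.78 ± 0.14, adjusted p = 1.82e-04), and, outside the naming rule and picked after their values were seen, the IL-2 receptor chains Il2ra (0.88 ± 0.20) and Il2rb (0.72 ± 0.14) and the IL-4 receptor chain Il4ra (1.05 ± 0.21). In the list of gp130 and IL-12 family chains 1 of 10 was higher and 2 were lower, and the higher one, the oncostatin M receptor gene Osmr, was at 0 CPM in all LN libraries and averaged 0.50 ± 0.33 CPM (SD, n = 3) in WT skin. In the list of IL-10 and interferon receptor chains 4 of 9 were higher and 3 lower. Il10rb, the signalling partner of Il10ra, was lower in skin (-1.002 ± 0.17, adjusted p = 1.14e-04), at 70.2 ± 17.1 CPM beside 141 ± 22.1 CPM in LN (SD, n = 3). Ifngr1, a chain of the interferon gamma receptor, was higher in skin by 2.44 ± 0.22, and the interferon alpha receptor chains split, Ifnar1 higher (0.68 ± 0.16) and Ifnar2 lower (-0.60 ± 0.13). Of 15 other interleukin receptor chains 5 were higher and 10 did not pass, among the higher Il1rl1, the receptor of IL-33 (4.88 ± 0.18), the IL-18 receptor chains Il18rap (2.63 ± 0.20) and Il18r1 (0.91 ± 0.18), and Il1r2 (1.18 ± 0.20).

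**Figure D3:**
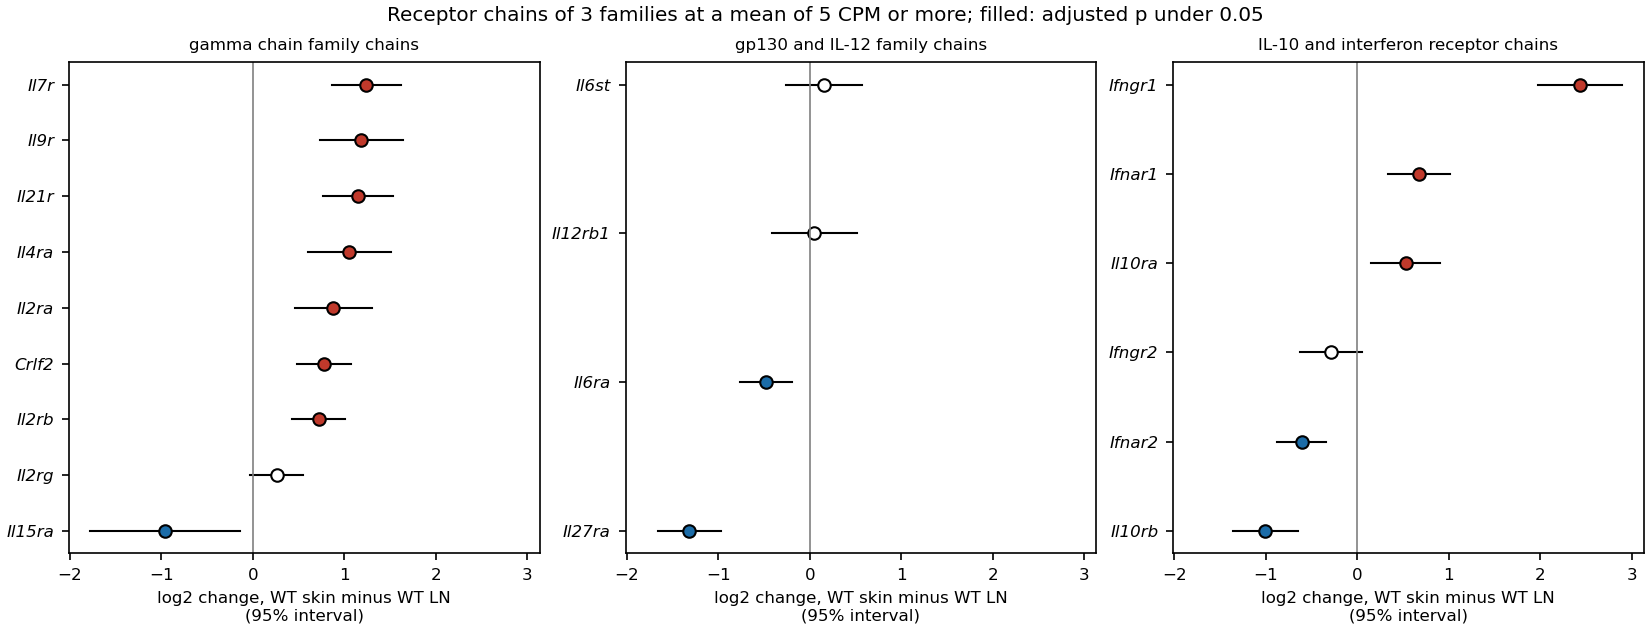
Log2 difference between WT skin and WT LN of receptor chains in 3 families, with 95% intervals; filled points have an adjusted p under 0.05. Chains with a mean under 5 CPM over both groups are left out, which leaves 9 of 9, 4 of 10 and 6 of 9 tested chains. Most chains of the common gamma family list, which also counts Crlf2, lie right of 0, and Il27ra, Il6ra, Il10rb and Ifnar2 lie left of it.

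Below the receptors, 4 of 11 Janus kinases and STATs were higher in skin and 4 were lower. Stat3, which IL-6, IL-10 and IL-21 use, was higher by 2.23 ± 0.14, Jak2 by 3.73 ± 0.24 and Stat5a, which IL-2 and IL-7 use, by 1.82 ± 0.14, while Stat6, which IL-4 uses, was lower (-0.83 ± 0.16). Of 15 signal dampers and receptor sheddases, 6 were higher and 2 lower. Cish (2.05 ± 0.10) and Socs2 (1.38 ± 0.13), feedback inhibitors induced by STAT5, and Socs7 (2.11 ± 0.29) were higher, and Ptpn6, the gene of the phosphatase SHP-1, was lower (-3.27 ± 0.14). Among 14 response genes of STAT3 and STAT5, 10 were higher and 3 lower. Junb (4.44 ± 0.22), Pim1 (3.46 ± 0.17) and Bcl3 (2.76 ± 0.21) stood on the skin side, and Bcl2, a survival gene that IL-7 supports, on the LN side (-6.05 ± 0.27). Of 5 regulators of Il7r transcription, Runx1 (1.04 ± 0.16) and Foxo1 (1.27 ± 0.27) were higher in skin, and Gfi1, a repressor, was lower (-2.56 ± 0.97, adjusted p = 0.0332).

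The ligands were mostly scarce in the sorted cells. Of 19 listed, 11 were tested, 4 were higher in skin and 1 was lower. Il10, the ligand of Il10ra, had the highest level of them in WT skin, at 552 ± 5.94 CPM beside 2.77 ± 0.89 CPM in LN (SD, n = 3). Ebi3 averaged 41.8 ± 2.19 CPM in WT skin and 27.8 ± 3.65 CPM in LN, and Osm, the oncostatin M gene, 18.5 ± 7.23 and 23.3 ± 4.67 CPM. Ebi3, a subunit of IL-27, was higher by 0.59 ± 0.18. Il6 averaged 4.53 ± 3.24 CPM in WT skin and 0.06 ± 0.06 CPM in LN, and Il7, the lower one, was at 0 in all WT skin libraries and averaged 0.46 ± 0.44 CPM in LN. The highest group mean among Il2, Il9 and Il21 was 0.61 CPM, that of Il2 in LN, and Il27 was at 0 in every group.

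MC903 skin was set against untreated skin within each genotype to see which chains move in inflamed skin. In WT Tregs Il7r rose and Il21r and Il9r fell, and in cKO Tregs Il21r and Il9r fell. Of all genes tested, 10.5% were called in WT (5.03% higher, 5.44% lower) and 11.3% in cKO (5.96% higher, 5.30% lower), beside 3 and 2 of the 9 chains. The median log2 change of the chains was -0.34 in WT and -0.14 in cKO, beside 0.01 and -0.01 over all genes. The groups' libraries did not overlap for 5 chains in WT, beside 28.2% of all genes, and for 4 chains in cKO, beside 33.4%. The WT untreated libraries also serve the comparisons with LN and between genotypes, so those results are not independent of each other.

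Il7r reached 620, 466 and 674 CPM in WT MC903 skin, beside 375, 232 and 298 CPM untreated. The groups did not overlap, and the log2 change was 0.96 ± 0.18 (adjusted p = 0.00329). In cKO skin it was 562, 689 and 591 CPM treated and 419, 415 and 418 CPM untreated. These groups did not overlap either, but the change of 0.56 ± 0.18 missed the threshold (adjusted p = 0.0516, 95% interval 0.18 to 0.93). It passed under 4 of 14 alternatives, with DESeq2 (adjusted p = 0.0199), limma-voom (0.00979), the filter of 50 counts (0.0439) and only the compared groups (0.0128). The difference between the genotypes' responses, the interaction term, was -0.40 ± 0.25 and did not pass (adjusted p = 0.888, 95% interval -0.93 to 0.13).

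Il21r was read at 267, 258 and 369 CPM in WT MC903 skin, beside 914, 575 and 611 CPM untreated. Every treated library lay below every untreated one, and the log2 change was -1.23 ± 0.18 (adjusted p = 6.58e-04). In cKO skin it was 356, 366 and 351 CPM treated and 687, 782 and 738 CPM untreated. These groups were also apart, with a change of -1.04 ± 0.18 (adjusted p = 0.00228). Both calls held under all 14 alternatives run. The 6 treated libraries lay at 258 to 369 CPM, beside 254 to 348 CPM in LN.

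Il9r fell to 18.5, 18.2 and 21.1 CPM in WT MC903 skin from 48.1, 25.3 and 30.5 CPM, and to 20.6, 26.3 and 22.1 CPM in cKO MC903 skin from 35.5, 38.4 and 40.6 CPM. The groups did not overlap in either genotype. The log2 changes were -0.85 ± 0.21 (adjusted p = 0.0195) and -0.73 ± 0.21 (adjusted p = 0.0372). The WT call ended in 5 of 14 alternatives, including the fits without replicate 1 of WT skin (-0.53, adjusted p = 0.0935), replicate 1 (0.0833) or replicate 2 (0.0661) of WT MC903 skin. The cKO call ended in 7 of 14, including the fits without replicate 2 (0.102) or 3 (0.120) of cKO skin and without replicate 1 (0.123), 2 (0.0659) or 3 (0.106) of cKO MC903 skin.

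The other chains did not pass in either genotype. Il2rg was 1623, 1551 and 1753 CPM in WT MC903 skin, below each untreated WT library (-0.34 ± 0.14, adjusted p = 0.125), and 2229, 1760 and 1709 CPM in cKO MC903 skin (-0.20 ± 0.14, adjusted p = 0.378). Il6ra showed 96.6, 71.9 and 98.2 CPM in WT MC903 skin, also below each untreated WT library (-0.36 ± 0.13, adjusted p = 0.0995), while in cKO skin its change was -0.06 ± 0.13 (adjusted p = 0.809). Il10ra was 199, 183 and 156 CPM in cKO MC903 skin and 208, 260 and 297 CPM in cKO untreated skin. These groups lay apart, yet the change of -0.51 ± 0.18 did not pass (adjusted p = 0.0742), though it did with DESeq2 (0.0334), with limma-voom (0.0118) and without replicate 1 of cKO skin (0.0325).

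In WT skin the Il10ra change with MC903 was -0.07 ± 0.18 (adjusted p = 0.86) and that of Il6st was 0.36 ± 0.20 (adjusted p = 0.274). Without replicate 1 of WT skin, Il6st passed (0.64, adjusted p = 0.0402). Il27ra lay at 83.3 to 111 CPM in WT MC903 skin and 113 to 139 CPM in cKO MC903 skin, with changes of -0.31 ± 0.16 and -0.07 ± 0.16, and Il15ra lay at 2.86 to 6.83 CPM over the 6 treated libraries. The fibroblast-rich libraries were tested by leaving out the 3 named above: Il7r then changed by 0.85 in WT (adjusted p = 0.0307) and Il21r by -1.42 in WT and -1.08 in cKO (0.0024 and 0.0103), while Il9r no longer passed in WT (-0.92, 0.065) or cKO (-0.75, 0.113).

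Il21r and Il9r, which fell in both genotypes, were also compared library by library. Over the 6 untreated skin libraries the Pearson correlation of their log2 CPM was 0.96 and Spearman's rho 0.94, and without the 2 libraries farthest from the median of Il21r r was 0.92. Over the 6 MC903 libraries r was 0.79 and rho 0.71, and r was 0.33 without the 2 farthest, so there the relation rested on those libraries. The libraries share genotypes, preparation and scaling, and these values are a description.

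**Figure D4:**
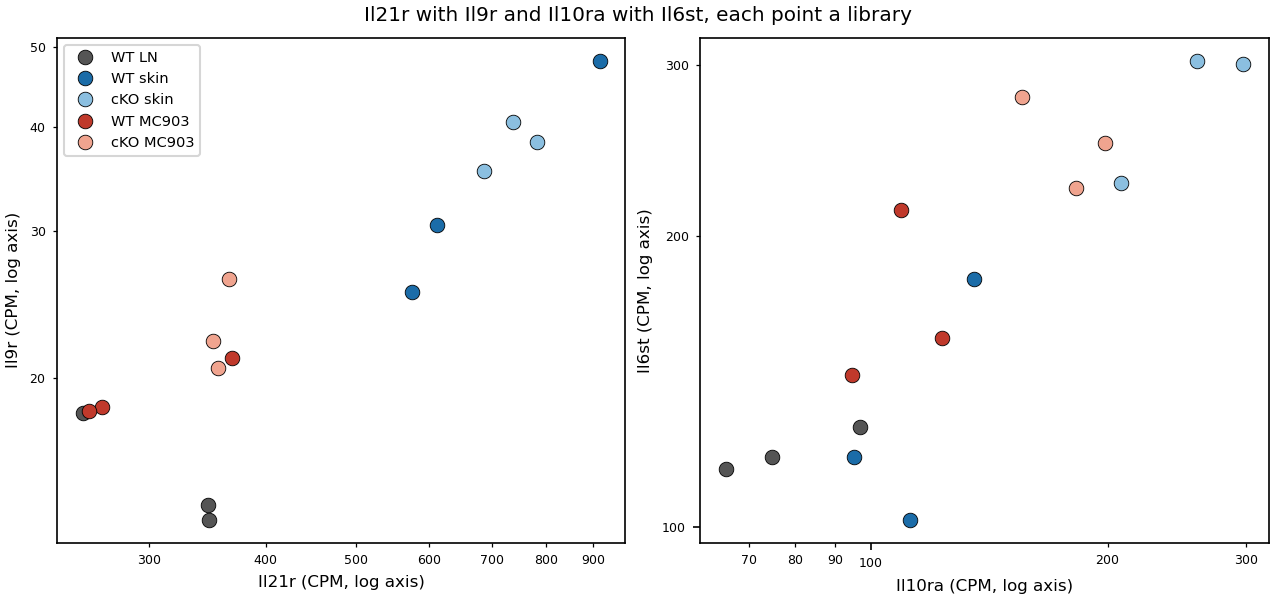
Left, Il21r against Il9r, and right, Il10ra against Il6st, in CPM on log axes, each point a library coloured by group. MC903 libraries sit at the lower left and untreated skin libraries at the upper right for the first pair. For the second pair the cKO libraries lie above and to the right of all WT libraries.

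Among the partners, Il2ra, the high-affinity IL-2 receptor chain, rose with MC903 in both genotypes (0.91 ± 0.20, adjusted p = 0.00926, in WT and 0.66 ± 0.20, adjusted p = 0.0429, in cKO), a gene outside the naming rule and picked after its values were seen. Of the 9 chains in the common gamma family list, Crlf2 among them, 2 were higher and 2 lower in WT, and 1 was higher and 2 lower in cKO. Il12rb1, a chain of the IL-12 and IL-23 receptors, fell in WT (-0.81 ± 0.22, adjusted p = 0.0284), and Il1r2, the decoy receptor of IL-1, rose in WT (1.01 ± 0.20) and cKO (0.79 ± 0.20). Il10 fell in WT (-1.45 ± 0.16) and cKO (-0.81 ± 0.15), and Il7, at 0 in all untreated WT libraries, averaged 0.67 ± 0.52 CPM (SD, n = 3) in WT MC903 skin and was called higher (adjusted p = 0.0238). Stat4 (1.16 ± 0.22 and 0.98 ± 0.22) and Stat5b (0.61 ± 0.12 and 0.65 ± 0.12) rose in WT and cKO. Of the 15 signal dampers and receptor sheddases 13 did not pass in WT and 10 did not pass in cKO. Among those that did, Cish fell (-0.52 ± 0.10 and -0.59 ± 0.10) and Socs5 rose (0.78 ± 0.18 and 1.09 ± 0.18). Of 5 regulators of Il7r transcription, Runx1 fell in WT (-0.84 ± 0.16), and in cKO Foxo1 fell (-0.89 ± 0.27, adjusted p = 0.0473) and Gfi1, at a mean of 0.16 CPM untreated and 2.04 CPM treated, rose. Of 14 STAT3 and STAT5 response genes 2 rose and 3 fell in WT and 1 rose and 5 fell in cKO, with Junb falling in WT (-1.14 ± 0.20) and cKO (-1.27 ± 0.20), the kinase gene Pim3 in WT (-1.08 ± 0.21) and Ahr in cKO (-0.99 ± 0.21).

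The cKO and WT groups were compared to see which chains differ in Tregs with floxed Rora. In untreated skin Il10ra and Il6st were higher in cKO Tregs and the other 7 chains did not pass. Of all genes tested, 0.803% were called here and 0.398% were called higher, beside 2 of the 9 chains. The median log2 difference of the chains was 0.14, beside -0.0049 over all genes, and 8 of the 9 had a positive estimate, beside 49.1% of all genes. In MC903 skin 0.258% of genes (0.0810% higher) and 0 of the 9 chains were called, 3 chains had an unadjusted p under 0.05, and DESeq2 and limma-voom each called 1 chain, Il10ra. The groups' libraries did not overlap for 3 chains in untreated skin, beside 13.6% of all genes, and for 4 chains in MC903 skin, beside 16.0%.

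Il10ra was read at 208, 260 and 297 CPM in cKO untreated skin, beside 135, 112 and 95.03 CPM in WT. The lowest cKO library lay well above the highest WT library, and the log2 difference was 1.16 ± 0.18 (adjusted p = 0.00386). The call held under all 14 alternatives, with estimates from 1.04 to 1.30. In MC903 skin the cKO libraries held 199, 183 and 156 CPM and the WT libraries 123, 94.5 and 109 CPM. The groups were apart again, but the difference of 0.72 ± 0.18 did not pass edgeR's test (adjusted p = 0.156). It passed with DESeq2 (adjusted p = 0.0144) and limma-voom (0.045). Averaged over both treatments the difference was 0.94 ± 0.13 (adjusted p = 6.16e-04), a 1.92-fold higher level.

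Il6st was read at 227, 303 and 301 CPM in cKO untreated skin, beside 181, 102 and 118 CPM in WT. The groups did not overlap, and the log2 difference was 1.05 ± 0.20 (adjusted p = 0.0153). The call ended with only the compared groups in the fit (adjusted p = 0.0874) and without replicate 2 (0.0682) or 3 (0.0801) of WT skin or replicate 2 (0.0728) or 3 (0.0748) of cKO skin. In MC903 skin the cKO libraries held 249, 224 and 278 CPM and the WT libraries 157, 144 and 213 CPM. Each cKO library lay above each WT library, and the difference of 0.55 ± 0.20 did not pass (adjusted p = 0.492). Averaged over both treatments it was 0.80 ± 0.14 (adjusted p = 0.00478), a 1.74-fold higher level.

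The averaged test called 1.75% of all genes and 0.884% higher, and of the 9 chains only Il10ra and Il6st, both under all 20 alternatives run. The genotype by MC903 interaction called 0 genes with edgeR, where 765 had an unadjusted p under 0.05, and 17 with DESeq2. Of the 9 chains 0 passed by either tool and 0 had an unadjusted p under 0.05 with edgeR. The interaction terms were -0.44 ± 0.25 for Il10ra (95% interval -0.98 to 0.09) and -0.50 ± 0.28 for Il6st (-1.09 to 0.09), so a smaller genotype difference in treated skin was not shown and was within the intervals.

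The chains that pair with these 2 were read alongside. Il6ra, the partner of Il6st for IL-6, showed 116, 128 and 133 CPM in cKO untreated skin and 103, 131 and 127 CPM in cKO MC903 skin. In MC903 skin the cKO and WT libraries did not overlap, but the difference of 0.44 ± 0.13 did not pass (adjusted p = 0.335), nor did 0.14 ± 0.13 in untreated skin (adjusted p = 0.747) or the average of 0.29 ± 0.09 (adjusted p = 0.183). Il27ra, its partner for IL-27, showed 142, 134 and 112 CPM in cKO untreated skin and 139, 117 and 113 CPM in cKO MC903 skin, with differences of 0.08 ± 0.16 and 0.31 ± 0.16 that did not pass (adjusted p = 0.912 and 0.794). Il10rb averaged 75.4 ± 9.29 CPM in cKO and 70.2 ± 17.1 CPM in WT untreated skin, and Il10 averaged 547 ± 12.8 and 552 ± 5.94 CPM (SD, n = 3). In MC903 skin Il10rb averaged 104 ± 5.16 CPM in cKO and 79.6 ± 8.59 CPM in WT, and Il10 averaged 313 ± 5.21 and 202 ± 25.6 CPM. Each cKO library lay above each WT library there for both genes, but the log2 differences of 0.38 ± 0.17 for Il10rb (adjusted p = 0.692) and 0.63 ± 0.15 for Il10 (adjusted p = 0.133) did not pass. Neither gene was called in any genotype comparison by edgeR.

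Il7r was read at 419, 415 and 418 CPM in cKO untreated skin, above each of the 3 WT libraries, but the log2 difference of 0.47 ± 0.18 did not pass (adjusted p = 0.313), and in MC903 skin it was 0.07 ± 0.18. Il21r (0.07 ± 0.18 untreated, 0.26 ± 0.18 with MC903), Il9r (0.14 ± 0.21 and 0.25 ± 0.21) and Il2rg (0.06 ± 0.14 and 0.21 ± 0.14) had intervals that reached from below 0 to no more than 0.71. Il15ra was 4.87, 4.83 and 6.72 CPM in cKO untreated skin, and its difference of -0.69 ± 0.39 (adjusted p = 0.542) was -0.024 without replicate 3 of WT skin, the library with the highest Il15ra level of its group.

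Il10ra and Il6st were also compared library by library within each genotype. Over the 6 WT skin libraries the Pearson correlation of their log2 CPM was 0.39 (rho 0.31, and r 0.26 without the 2 libraries farthest from the median of Il10ra), and over the 6 cKO skin libraries it was 0.55 (rho 0.54, and r 0.91 without those 2). Markers of other lymphocytes, namely CD8 T cells, NK cells, innate lymphoid cells and gamma-delta T cells, moved with the genotype: their sum over 8 genes was 17.8 to 21.9 CPM in WT and 29.6 to 37.2 CPM in cKO untreated skin, and 19.2 to 28.3 and 24.4 to 34.9 CPM in MC903 skin. The NK markers Ncr1 and Klrb1c were at 0 in all untreated skin libraries. Macrophage, dendritic and Langerhans cell markers, summed over 10 genes, lay at 88.9 to 216 CPM in cKO and 17.8 to 68.9 CPM in WT MC903 skin, without overlap, and at 41.0 to 88.6 and 15.9 to 169 CPM in untreated skin, where the groups overlapped. For genotype, 0 of the 9 tested markers of this list were called in untreated or MC903 skin. Of the 7 tested markers of other lymphocytes, 0 were called in either. The Langerhans cell marker Cd207 was at 0 in 2 of the 3 cKO MC903 libraries. The part of these cells and of the other lymphocytes in the Il10ra and Il6st differences was not tested. Without the 3 fibroblast-rich libraries the untreated differences were 1.29 for Il10ra (adjusted p = 0.0106) and 1.18 for Il6st (0.0173). Only replicate 1 of cKO skin among them belongs to this comparison, and it had the lowest Il10ra and Il6st levels of its group. Removing the lowest cKO library raises such a difference by itself, so this fit does not show the part of fibroblast and endothelial transcript.

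Il10ra lies on chromosome 9, as Rora does, and Il6st on chromosome 13. In the averaged comparison 25 of 772 tested genes on chromosome 9 were called (3.24%), beside 210 of 12754 on the other chromosomes (1.65%). Between Il10ra and Rora, both included, 10 of 190 tested genes were called (5.26%). Il10ra and Rora were themselves called in this comparison, so the choice of ends raised that share. Of the 40 tested genes nearest to Il10ra, 20 on each side, 0 were called by edgeR in the averaged comparison and 1 had an unadjusted p under 0.05. Whether sequence near the floxed gene differs between the mice was not tested.

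Among the listed partners the genotype called few genes. In untreated skin Runx1, a regulator of Il7r, fell (-0.88 ± 0.16, adjusted p = 0.00996), and Ahr, the aryl hydrocarbon receptor gene from the list of STAT3 and STAT5 response genes, rose (1.13 ± 0.21, adjusted p = 0.0153). Averaged over both treatments, Runx1 (-0.71 ± 0.11) and Stat5a (-0.39 ± 0.10, adjusted p = 0.0482) were lower and Ahr (0.83 ± 0.15) was higher.

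Each chain's 2 most similar genes were sought by the Pearson correlation of log2 CPM over the 15 libraries, among expressed genes with a name. Il7r was most like the lysosomal membrane gene Lamp2 (r = 0.98) and Serinc3 (0.97), and Il27ra most like Mndal (0.97) and Irf9 (0.97), both interferon-response genes. Il9r was most like Ubash3b (0.96) and Itgb8 (0.93), Il21r most like Tubb2a (0.95) and L1cam (0.94), and Il10ra most like the phosphodiesterase gene Pde3b (0.93) and Ddr1 (0.89). For Il6st the nearest were Cpox and B3glct (0.90 and 0.89), for Il2rg Ctsd and Slc2a3 (0.90 and 0.89), for Il6ra Itm2a and Lrif1 (0.90 and 0.85), and for Il15ra Zufsp and Stxbp2 (0.92 and 0.92). These correlations run over the skin and LN split and over all treatments, and the libraries share preparation and scaling.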

How the data were processed

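Libraries of sorted Treg RNA were made with a SMART-Seq v4 kit, which does not mark strand. TopHat2 2.0.6, the mm9 build and DESeq2 are named in the submitters' processing notes, and how reads were assigned to genes is not given in the sources used here. The main table holds raw counts, whole numbers that the authors deposited for each gene in each library. A second table that the authors deposited compares LN with skin. Per the file headers its columns are a mean signal after normalisation, the log2 fold change, its standard error, a score (their ratio), the p-value and an adjusted p.

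The counts were tested with edgeR 4.0.16 in R 4.3.3, and alternatives used limma 3.58.1 and DESeq2 1.42.0. After filterByExpr and TMM scaling, all 15 libraries entered 1 model. Contrasts used glmQLFTest on a robust fit, with Benjamini-Hochberg adjustment over 13578 genes. An SE is the log2 change divided by the square root of F, and intervals are 95%. The script was tested on simulated counts. PCR duplicates could not be told from separate molecules, as the reads carry no molecular identifiers in the labels. Exon lengths came from GENCODE M21 (GRCm38) and promoters from RefSeq's GRCm38.p6 table. Chromosome positions came from RefSeq gene records, which placed 99.6% of tested genes by name or synonym.

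The 9 chains, the 9 lists of partner genes and the 7 lists of cell type markers were chosen with earlier results of these data known. All 9 chains are named throughout, and Rora and Foxp3 mainly where the libraries are described. From each partner list, the text names up to 4 called genes with the smallest adjusted p for skin against LN and up to 2 for the other comparisons. For each chain it names the 2 genes with the most similar pattern, at a mean log2 CPM over 3 (prior count 2). The alternatives replaced the tool (DESeq2, or limma-voom with sample weights), the scaling (relative log expression), the filter (1 count in all, or 50 counts in at least 3 libraries) or the design (compared groups alone, or a replicate block). They also left out each library, or the 3 richest in fibroblast and endothelial transcript.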

Additional observations from a re-analysis of the deposited data

How the results depend on the processing

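Of 63 changes of single chains, recomputed under 990 alternatives in all, 17 alternatives turned the sign, 0 of them with a call, 29 ended a call and 10 made one. The number of chains called for genotype in untreated skin was 1 with only the compared groups in the fit and 1 to 2 with each library left out. For genotype in MC903 skin it was 1 with DESeq2 and 1 with limma-voom. For MC903 in cKO skin it was 4 with DESeq2, 4 with limma-voom, 1 without the 3 fibroblast-rich libraries and 1 to 3 with each library left out. It was 5 to 7 for skin against LN and 2 to 3 for MC903 in WT with each library left out. Same-numbered libraries deviated from their group means with correlations of -0.28 to 0.22. For MC903 in WT skin, replicates 1, 2 and 3 each correlated best with the same number (0.04, 0.07 and 0.06). For MC903 in cKO skin the best matches of replicates 1, 2 and 3 were 3, 3 and 1. With 3 libraries a group these values cannot show whether the replicate numbers pair the libraries. With the replicate block the count for MC903 in cKO skin was 1, Il9r having an adjusted p of 0.0559 by edgeR, and no other count of called chains changed.

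Signs turned only for changes that were not called. Leaving out each library gave ranges of -0.13 to 0.31 for Il6st between skin and LN. For genotype in untreated skin they were -0.052 to 0.31 for Il21r, -0.043 to 0.45 for Il9r and -0.035 to 0.22 for Il27ra. For genotype in MC903 skin they were -0.075 to 0.18 for Il7r and -0.36 to 0.20 for Il15ra. For MC903 they were -0.18 to 0.073 for Il10ra in WT, and -0.40 to 0.16 for Il15ra and -0.13 to 0.034 for Il6ra in cKO. For the interaction they were -0.049 to 0.37 for Il21r, -0.20 to 0.30 for Il9r and -0.053 to 0.90 for Il15ra. Il27ra for MC903 in cKO turned to 0.053 without the 3 fibroblast-rich libraries. The causes were not tested.

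Counts over all genes moved more. For genotype in untreated skin they were 109 with edgeR, 323 with DESeq2, 54 without the fibroblast-rich libraries and as low as 60 without 1 library (replicate 3 of WT skin). In MC903 skin they were 35, with 140 by DESeq2, 104 by limma-voom, 13 without the fibroblast-rich libraries and as low as 22 without 1 library. For MC903 they were 1421 in WT, with 541 in the fit of the compared groups, 758 without the fibroblast-rich libraries and 767 without replicate 1 of WT MC903 skin, and 1529 in cKO, with 2642 by limma-voom and 645 without replicate 2 of cKO MC903 skin. The averaged count was 237, with 462 by DESeq2 and 107 without the fibroblast-rich libraries, and the interaction count was 0, with 17 by DESeq2 and at most 1 under the other alternatives. With 3 libraries a group, a p over the threshold does not show that levels were equal.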
